A study of Mus musculus with 9 samples.

Results

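The breakdown of the branched-chain amino acids leucine, isoleucine and valine was described in mouse oocytes through 10 of its genes, among 26358 genes in the deposited table. The genes were taken by name: Bcat1 and Bcat2, Dbt, Bckdha and Bckdhb, Bckdk and Ppm1k, and Ivd, Mccc1 and Mccc2. Dbt was singled out because it was already known to be higher in 1 of the 2 cryopreserved groups, so its level in that group is a description here and was not tested. Poly(A) RNA was sequenced from 3 libraries of each of 3 groups of oocytes. The fresh group was not frozen. The cryopreservation-1 group was frozen in a tiny volume on a cryotop strip, with 15% EG, 15% DMSO and 0.5 M sucrose. The cryopreservation-2 group was frozen inside a straw in 17.5% EG, 1 M trehalose and PVA/Fe3O4/GO nanoparticles. Carrier, solutes and nanoparticles differed together between both methods and cannot be told apart. The labels give no strain, age or meiotic stage, and do not say whether the replicates of a group came from separate animals or pools, so p-values measure the spread between these libraries, which may be technical.

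The first step of the pathway is a transamination, carried out in the cytosol by the Bcat1 enzyme and in mitochondria by the Bcat2 enzyme. The branched-chain 2-oxoacids that result are oxidised by a large mitochondrial complex, whose E1 component is built from the Bckdha and Bckdhb subunits, whose core (E2) is the Dbt protein and whose E3 component, Dld, is shared with the pyruvate and 2-oxoglutarate dehydrogenase complexes. This step commits the carbon skeleton to breakdown, and it is switched off by the kinase Bckdk and back on by the phosphatase Ppm1k. In the leucine branch, Ivd and then the carboxylase formed by Mccc1 and Mccc2 act after the complex. Leucine is also known as a signal of nutrient supply.

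Library totals ran from 49337232 to 80877288 counts, and the cryopreservation-2 libraries, with at most 51369012, were the 3 smallest; the part of this difference in depth in the results was not tested. All 12 oocyte markers were detected in every library and together took 1.45% to 2.19% of the counts, a share that overlapped between the groups. By gene, 0 of the 12 were called in cryopreservation-2 against fresh, where 5.38% of all genes were. Zp1, Zp2, Nobox and Ooep, 4 of the 12, were higher there without overlap of the libraries, as were 15.1% of all genes. Markers of cumulus and granulosa cells took 0.0936% to 0.124% of the counts in fresh, 0.101% to 0.124% in cryopreservation-1 and 0.112% to 0.175% in cryopreservation-2, with 1 to 4 of the 9 markers in the table at 0 in each library. Cryopreservation-2 replicates 1 and 2, at 0.175% and 0.169%, were the highest, and the part of such cells in the results was not tested. Most of this share came from 1 gene, Serpine2, with means of 1141 CPM in fresh and 1342 in cryopreservation-2. Cyp19a1 (65.1 and 47.0 CPM) and Has2 (0.833 and 0.0365 CPM) were lower in cryopreservation-2. Against fresh, 4 of the 7 markers tested had a positive and 3 a negative log2 fold change in cryopreservation-2. Of these 7, 0 were called in any comparison, which at so few genes does not show equal levels. Over all genes 5.38% were called in cryopreservation-2 against fresh, 2.75% against cryopreservation-1 and 0% in cryopreservation-1 against fresh. Markers of stromal and endothelial cells took at most 0.0206% and those of immune and blood cells at most 0.00146% in any library. Of the 5 stromal and endothelial markers tested, Myh11 was called higher in cryopreservation-2 (36.3 CPM) than in fresh (19.7 CPM), where 3.18% of all genes were called higher. Of the 7 immune and blood markers in the table, 5 were at 0 in every fresh and cryopreservation-1 library. In cryopreservation-2, 2, 1 and 3 of the 7 were at 0 in replicates 1, 2 and 3. Markers at 0 elsewhere had at most 19 counts there (Hba-a1, replicate 1), and the part of such cells was not tested. In bulk RNA, fewer cells of a type and less RNA per cell cannot be told apart.

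Levels are given as CPM, which are counts scaled to a common library size with TMM factors, and levels of different genes are compared only as FPKM, which also divide by gene length. Differences are log2 fold changes with their standard errors (SE) from 1 edgeR quasi-likelihood fit to the counts of all 9 libraries. A gene was called higher or lower at a Benjamini-Hochberg adjusted p under 0.05 over the 17545 genes that passed a filter on low counts. All 10 branched-chain genes passed that filter.

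Dbt encodes the E2 core, which carries a lipoyl group on a swinging arm and passes the acyl group to coenzyme A. The gene (ENSMUSG00000000340) lies on the plus strand of chromosome 3, at 116513070 to 116549981 in GRCm38, and its longest coding transcript has 11 exons and 482 codons. The stretch around the codon for the lysine that bears the lipoyl group is shown because it is the feature that sets Dbt apart from the other members and ties it to the sister complexes. It lies in exon 4, at codon 105 (chr3:116533286-116533348, plus strand). Dlat, the E2 core of the pyruvate dehydrogenase complex, has such a codon at 131 in exon 3 and at 258 in exon 5, on the minus strand of chromosome 9 at 50658275 to 50658277 and 50653632 to 50653634. The lysine codon is in capitals, and the Dlat stretches cross exon boundaries.
Dbt, codon 105: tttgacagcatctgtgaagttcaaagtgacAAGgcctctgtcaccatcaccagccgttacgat
Dlat, codon 131: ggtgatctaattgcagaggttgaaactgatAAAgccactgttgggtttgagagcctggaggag
Dlat, codon 258: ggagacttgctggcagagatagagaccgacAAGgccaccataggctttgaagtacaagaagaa

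Dbt was low and even in fresh and cryopreservation-1 oocytes, and far higher in every cryopreservation-2 library. It stood at 12.8, 8.33 and 7.48 CPM in fresh replicates 1 to 3, and at 11.2, 10.2 and 8.82 CPM in cryopreservation-1. In cryopreservation-2 it stood at 254.8, 70.6 and 106.3 CPM, from 13299, 3873 and 6379 counts. The lowest cryopreservation-2 library was thus above the highest of the other 6, while the fresh and cryopreservation-1 libraries overlapped. Group means were 9.54 ± 2.86 CPM (fresh), 10.1 ± 1.19 CPM (cryopreservation-1) and 143.9 ± 97.7 CPM (cryopreservation-2), with the SD over 3 libraries. The cryopreservation-2 mean corresponded to a log2 fold change of 3.92 (SE 0.467) over fresh, or 15.1-fold, and of 3.84 (SE 0.465) over cryopreservation-1, or 14.3-fold. Both comparisons share the cryopreservation-2 libraries, and neither was tested, since Dbt was chosen for this difference.

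The size of the Dbt difference depended on 1 library more than on any other. Within cryopreservation-2 the highest library was 3.61 times the lowest, against 1.71 times in fresh and 1.27 times in cryopreservation-1. Without cryopreservation-2 replicate 1 the log2 fold change was 3.26 over fresh and 3.21 over cryopreservation-1. By its log2 fold change over fresh, Dbt ranked 316th from the highest of the 17545 genes, and over cryopreservation-1 it ranked 166th. In cryopreservation-1 against fresh, a comparison that played no part in choosing Dbt, the log2 fold change was 0.08 (SE 0.418, edgeR adjusted p = 1) and its rank was 7947th.

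**Figure D1:**
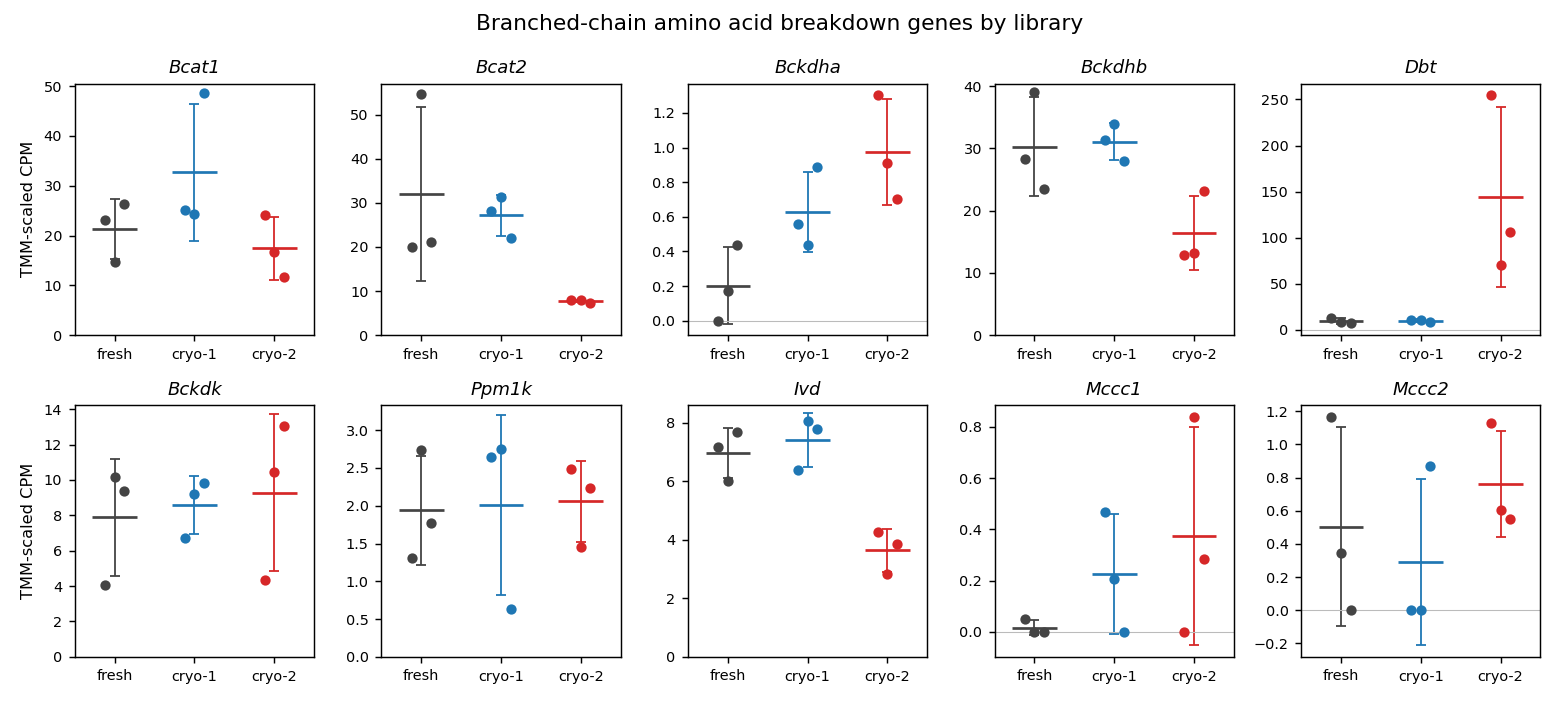
Level of each of the 10 branched-chain genes in the 9 libraries, in CPM on a linear axis of its own for each gene, with 1 point per library, a horizontal line at each group mean and error bars of 1 SD (n = 3); cryo-1 and cryo-2 are the cryopreservation-1 and cryopreservation-2 groups. Dbt in the cryopreservation-2 libraries (70.6 to 254.8 CPM) is above all of its other points, and Bcat2 in those libraries (7.38 to 7.95 CPM) is below all of its other points.

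Neither E1 subunit passed the test. Bckdhb, the E1 beta subunit on chromosome 9 (83925145 to 84124240, plus strand, ENSMUSG00000032263), stood at 28.3, 39.0 and 23.4 CPM in fresh, 31.4, 33.9 and 27.96 in cryopreservation-1 and 12.9, 13.1 and 23.2 in cryopreservation-2. Its highest cryopreservation-2 library was just under the lowest fresh one, at 23.2 against 23.4 CPM, so the groups did not overlap but nearly met. The log2 fold change was -0.88 (SE 0.296, edgeR adjusted p = 0.113) against fresh and -0.92 (SE 0.296, edgeR adjusted p = 0.119) against cryopreservation-1, and neither passed the threshold. DESeq2, an alternative count test, put Bckdhb past it in both comparisons (adjusted p = 0.0335 and 0.0353).

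Bckdha, the E1 alpha subunit that the kinase phosphorylates, was hardly detected. On chromosome 7 (25629946 to 25658981, minus strand, ENSMUSG00000060376), it had 0, 12 and 31 counts in fresh, 43, 34 and 55 in cryopreservation-1 and 68, 50 and 42 in cryopreservation-2. The fresh libraries were below all of the cryopreserved ones, and the cryopreservation-1 and cryopreservation-2 libraries overlapped. Fresh and cryopreservation-1 nearly met, at 0.4372 CPM in fresh replicate 3 against 0.4385 in cryopreservation-1 replicate 2. The log2 fold change of cryopreservation-2 over fresh was 2.25 (SE 1.26, edgeR adjusted p = 0.337), and that of cryopreservation-1 over fresh was 1.62 (SE 1.23, edgeR adjusted p = 1). These counts are uncertain, because B3gnt8 overlaps Bckdha on the opposite strand: 50.8% of the 50-base words of the longest Bckdha transcript also occur in that gene's transcripts, and the strand setting of the counting is not given. B3gnt8 itself had between 22 and 150 counts per library.

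Dbt and Bckdhb, subunits of 1 complex, stood in opposite order in cryopreservation-2. The ratio of Dbt to Bckdhb, both in FPKM, had a lowest, median and highest value of 0.115, 0.172 and 0.244 in fresh and of 0.162, 0.170 and 0.192 in cryopreservation-1. In cryopreservation-2 it was 2.47, 2.91 and 10.7. Bckdhb was thus the higher of the pair in each of the 6 other libraries and Dbt in each of the 3 cryopreservation-2 libraries, a difference to which the choice of Dbt contributes and which was not tested.

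**Figure D2:**
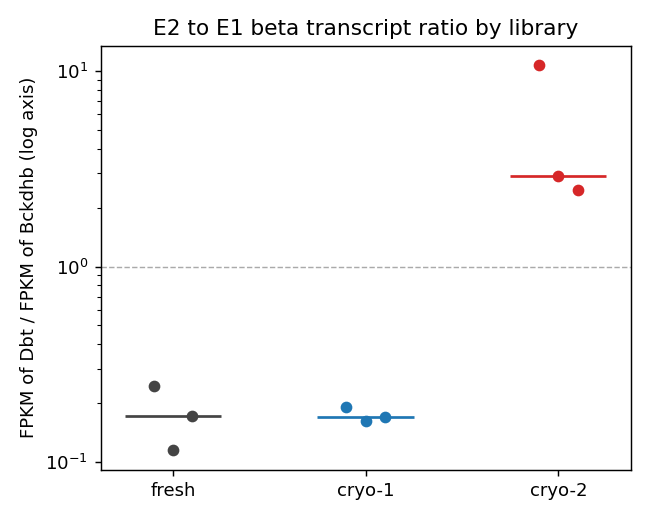
Ratio of Dbt to Bckdhb, both in FPKM, on a log axis, with 1 point per library, a line at each group median and a dashed line at equal levels; cryo-1 and cryo-2 are the cryopreserved groups. The ratio is at most 0.244 in the fresh and cryopreservation-1 libraries and between 2.47 and 10.7 in cryopreservation-2.

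The E3 subunit Dld (ENSMUSG00000020664), which is not specific to this complex, was also higher in the cryopreservation-2 libraries, by far less than Dbt. It stood at 30.4, 23.0 and 32.3 CPM in fresh, 28.2, 29.8 and 25.8 in cryopreservation-1 and 81.0, 45.5 and 39.0 in cryopreservation-2. The cryopreservation-2 libraries were above the other 6, and replicate 1 was the highest of them, as it was for Dbt. The log2 fold change of 0.95 over fresh (SE 0.289, edgeR adjusted p = 0.0861) and of 0.98 over cryopreservation-1 (edgeR adjusted p = 0.0948) missed the threshold. DESeq2 called Dld higher than in fresh (adjusted p = 0.0171). So did edgeR with a minimum mean of 5 CPM (adjusted p = 0.0312) and limma on FPKM with pseudocounts of 1 and 0.1 (adjusted p = 0.0272 and 0.0294). With any 1 library left out Dld was not called (edgeR adjusted p from 0.0854 to 0.192).

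Neither regulator of the complex passed the test in any comparison. Bckdk, the kinase that inactivates E1 (chromosome 7, 127904082 to 127910221, plus strand, ENSMUSG00000030802), stood at 4.08, 10.2 and 9.39 CPM in fresh, 6.71, 9.21 and 9.84 in cryopreservation-1 and 4.37, 10.4 and 13.04 in cryopreservation-2. Ppm1k, the phosphatase that reactivates it (chromosome 6, 57506502 to 57535426, minus strand, ENSMUSG00000037826), stood at 1.32, 2.73 and 1.78 CPM, at 2.64, 2.75 and 0.629 CPM and at 2.49, 1.46 and 2.23 CPM in the same order. Libraries of the 3 groups overlapped for both genes. The log2 fold change of cryopreservation-2 over fresh was 0.24 for Bckdk (SE 0.451, edgeR adjusted p = 0.827) and 0.09 for Ppm1k (SE 0.598, edgeR adjusted p = 0.960). At these standard errors a missed threshold does not show equal levels. The ratio of kinase to phosphatase in FPKM ran from 5.07 to 8.69 in fresh, from 4.13 to 25.8 in cryopreservation-1 and from 2.85 to 11.7 in cryopreservation-2, so the kinase transcript was the higher of the pair in all 9 libraries.

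Bcat2, the mitochondrial transaminase, was the 1 member of the 9 tested in cryopreservation-2, which leave out Dbt, that differed past the threshold. The gene (ENSMUSG00000030826) lies on chromosome 7, at 45570153 to 45589711 on the plus strand. It stood at 20.1, 54.7 and 21.2 CPM in fresh, 28.1, 31.3 and 22.1 in cryopreservation-1 and 7.95, 7.86 and 7.38 in cryopreservation-2. The cryopreservation-2 libraries were close to each other and below the other 6, and fresh replicate 2 was the highest of all 9. Bcat2 fell by 2.05 on the log2 scale from fresh to cryopreservation-2 (SE 0.384, edgeR adjusted p = 0.0190), which is 4.14-fold lower, and was 3.51-fold lower than in cryopreservation-1 (log2 fold change -1.81, SE 0.382, edgeR adjusted p = 0.0364). It did not differ past the threshold between cryopreservation-1 and fresh (log2 fold change -0.24, SE 0.369, edgeR adjusted p = 1).

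The direction for Bcat2 in cryopreservation-2 was the same under every alternative tried, but its call was not. Against fresh it was lost without cryopreservation-2 replicate 2 or 3 (edgeR adjusted p = 0.0582 and 0.0668) and with those 2 groups fitted alone (0.0524), and over all alternatives the adjusted p ran from 5.62e-06 to 0.0668. Without fresh replicate 2 the log2 fold change was -1.42 (edgeR adjusted p = 0.0244). Against cryopreservation-1 the call was lost on leaving out any 1 of the 6 libraries compared, with adjusted p up to 0.129, and with limma on unfiltered FPKM (0.0568). An antisense gene, 0610005C13Rik, shares 7.33% of the 50-base words of the longest Bcat2 transcript; it was not used here.

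Bcat1, the cytosolic transaminase (chromosome 6, 144993835 to 145076184, minus strand, ENSMUSG00000030268), did not pass the threshold in any comparison. It stood at 23.2, 14.6 and 26.3 CPM in fresh, 25.1, 24.4 and 48.6 in cryopreservation-1 and 24.2, 16.6 and 11.6 in cryopreservation-2. The cryopreservation-2 libraries overlapped the fresh ones and were just under the cryopreservation-1 ones, where replicate 3 was the highest. The log2 fold change of cryopreservation-2 was -0.29 over fresh (SE 0.372, edgeR adjusted p = 0.725) and -0.90 over cryopreservation-1 (SE 0.374, edgeR adjusted p = 0.219). The FPKM ratio of Bcat1 to Bcat2 had a median of 0.483 for fresh, 0.373 for cryopreservation-1 and 0.884 for cryopreservation-2, and reached 1.27 in its highest cryopreservation-2 library, with ranges that overlapped between cryopreservation-1 and cryopreservation-2 but not between fresh (at most 0.519) and cryopreservation-2 (at least 0.658).

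Among the members of the leucine branch, only its first enzyme was measured well. Ivd, isovaleryl-CoA dehydrogenase (chromosome 2, 118861954 to 118882909, plus strand, ENSMUSG00000027332), stood at 7.17, 6.03 and 7.70 CPM in fresh, 6.38, 8.07 and 7.79 in cryopreservation-1 and 4.25, 2.83 and 3.87 in cryopreservation-2. All 3 cryopreservation-2 libraries were below the other 6. The log2 fold change was -0.93 (SE 0.294, edgeR adjusted p = 0.0952) against fresh and -1.02 (SE 0.295, edgeR adjusted p = 0.0899) against cryopreservation-1, short of the threshold, and DESeq2 put both past it (adjusted p = 0.0221 and 0.0161).

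Both subunits of 3-methylcrotonyl-CoA carboxylase were near the limit of detection. Mccc1, which carries the biotin (chromosome 3, 35959312 to 36000678, minus strand, ENSMUSG00000027709), had 4, 0 and 0 counts in fresh, 36, 16 and 0 in cryopreservation-1 and 0, 46 and 17 in cryopreservation-2. Mccc2 (chromosome 13, 99948530 to 100015618, minus strand, ENSMUSG00000021646) had 94, 24 and 0, then 0, 0 and 54, then 59, 33 and 33 counts. Counts of 0 occurred in at least 1 library of a group for both genes, and the groups overlapped. No difference was detected between these scattered counts, which does not show equal levels. A fitted fold of these genes rests on the zeros and is not read. A count of 0 allows up to 3 counts, or 0.0372 to 0.0575 CPM depending on the library, for counting error only.

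The 250 bases before the RefSeq start sites (GRCm38.p6) of Bcat2, Bckdhb and Ivd are shown because these were the members whose cryopreservation-2 libraries were all below those of both other groups. RefSeq windows of 300 bases, from 250 before to 50 after a start, were matched for 9 of the 10 members, all but Dbt. Capitals mark matches on either strand to GGGCGG, the GC box, and to CCAAT, motifs common in promoters, which do not overlap each other here. The stretches shown lie at chr7:45569903-45570152, chr9:83924887-83925136 and chr2:118861744-118861993, all on the plus strand. Bcat2 and Bckdhb each have another RefSeq start, whose window is not shown.
Bcat2: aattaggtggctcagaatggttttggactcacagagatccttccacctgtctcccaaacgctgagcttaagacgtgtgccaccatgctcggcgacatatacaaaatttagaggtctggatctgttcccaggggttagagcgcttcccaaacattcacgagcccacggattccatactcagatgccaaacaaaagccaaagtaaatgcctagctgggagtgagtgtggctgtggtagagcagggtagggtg
Bckdhb: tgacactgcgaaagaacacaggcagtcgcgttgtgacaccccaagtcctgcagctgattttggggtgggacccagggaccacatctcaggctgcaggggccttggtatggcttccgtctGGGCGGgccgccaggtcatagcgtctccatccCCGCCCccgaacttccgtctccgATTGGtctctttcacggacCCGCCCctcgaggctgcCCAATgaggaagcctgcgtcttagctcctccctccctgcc
Ivd: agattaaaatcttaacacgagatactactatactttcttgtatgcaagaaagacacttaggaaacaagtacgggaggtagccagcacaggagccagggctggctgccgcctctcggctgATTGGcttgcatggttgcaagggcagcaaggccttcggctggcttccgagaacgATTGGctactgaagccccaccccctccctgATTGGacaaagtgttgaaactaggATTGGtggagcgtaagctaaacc

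None of the 3 motifs searched occurred in all 3 stretches. Ivd held 4 CCAAT matches and no GGGCGG, Bckdhb held 2 CCAAT and 3 GGGCGG matches, and Bcat2 held neither. Over both strands CCAAT occurred in 37.4%, GGGCGG in 35.7% and TATAAA in 13.6% of all 32851 RefSeq promoter windows. Of the 12 windows of the members, 8 had CCAAT, 3 had GGGCGG and 2 had TATAAA. Counted by gene, 7, 3 and 2 of the 9 members with a window had the motif in at least 1 window. The shares over all promoters are per window and so stand beside the counts per window. These counts describe the letters and not binding.

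The members other than Dbt were also counted together. In cryopreservation-2 against fresh, 0 of 9 were higher and 1, Bcat2, was lower by edgeR, where 5.38% of all genes tested were called, 3.18% higher and 2.2% lower. The libraries of those groups did not overlap for 1 of the 9 that was higher, Bckdha, and for 3 that were lower, Bckdhb, Bcat2 and Ivd, where 27.5% of all genes did not overlap, 15.1% higher and 12.4% lower. Their median log2 fold change was 0.09, against -0.06 over all genes tested. In cryopreservation-2 against cryopreservation-1, 0 of 9 were higher and 1, again Bcat2, was lower, where 2.75% of all genes were called, 1.5% higher and 1.25% lower. Bckdhb, Bcat1, Bcat2 and Ivd were lower without overlap, where 29% of all genes did not overlap, 13.8% higher and 15.2% lower. DESeq2 called 3 of the 9 lower in each of these comparisons, Bcat2, Bckdhb and Ivd, and 0 higher. Over all genes DESeq2 called 14.1% against fresh (7.69% higher, 6.39% lower) and 10.8% against cryopreservation-1 (5.58% higher, 5.2% lower). Both comparisons share the cryopreservation-2 libraries.

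In cryopreservation-1 against fresh, 0 of 10 members were called, where 0% of all genes were. Of the 10 members 0 had an unadjusted p under 0.05 in edgeR, and DESeq2 called 0. Of the 17545 genes tested, 828 had an unadjusted p under 0.05 in edgeR, and DESeq2 called 43, or 0.245% (0.154% higher, 0.0912% lower). Only Bckdha had libraries that did not overlap, in 1 of 10 members against 10.1% of all genes (6.37% higher, 3.72% lower), and the median log2 fold change of the members was 0.08 against 0.02.

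Per length, Bckdhb had the highest mean of the members in fresh and cryopreservation-1, and Dbt in cryopreservation-2. In fresh oocytes mean FPKM was 13.9 for Bckdhb, 6.71 for Bcat2, 2.41 for Dbt, 1.94 for Bcat1, 1.76 for Bckdk and 1.06 for Ivd, and the remaining 4 were below 0.27. Bckdhb was above Bcat2 in each of the 3 fresh libraries, and Dbt, Bcat1 and Bckdk overlapped each other. Cryopreservation-1 gave nearly the same order, with Bckdhb at 15.1, Bcat2 at 6.10, Bcat1 at 3.09 and Dbt at 2.63 FPKM, the last 2 overlapping. In cryopreservation-2 Dbt came first with 38.8 ± 24.2 FPKM (66.0, 19.7 and 30.6 by library), followed by Bckdhb at 8.44 ± 3.41, Bckdk at 2.35, Bcat2 at 1.82 and Bcat1 at 1.70, the last 3 of which overlapped. Dbt passed from the 6238th highest mean FPKM of all genes in fresh and the 6169th in cryopreservation-1 to the 1145th in cryopreservation-2.

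The rest of the pathway gave no call in either direction. The list of other genes, which act after the dehydrogenase or are its E3 subunit, held 21 symbols, with methylmalonyl-CoA mutase under both Mut and Mmut. Of these symbols 20 were in the table and 19 were tested. In cryopreservation-2 against fresh 0 of 19 were called, where 5.38% of all genes were. A positive log2 fold change was found for 12 and a negative one for 7, and the median was 0.45 against -0.06 over all genes. The smallest p of the list, ahead of that of Dld, belonged to Mmaa, which helps load cobalamin onto methylmalonyl-CoA mutase in the valine and isoleucine branches: 25.5 ± 7.08 CPM for fresh, 21.6 ± 1.44 for cryopreservation-1 and 12.5 ± 3.77 for cryopreservation-2 (SD, n = 3), a log2 fold change of -1.03 against fresh (SE 0.289, edgeR adjusted p = 0.0684). The count of 0 depended on the test: in edgeR 9 of the 19 had an unadjusted p under 0.05, against 21.8% of all genes, and DESeq2 called 5 higher and 1 lower, against 7.69% and 6.39% of all genes. In cryopreservation-2 against cryopreservation-1 edgeR called 0 of 19, where 2.75% of all genes were called, and the median was 0.03. In that comparison 6 had an unadjusted p under 0.05, against 18.9% of all genes, and DESeq2 called 2, against 10.8%. In cryopreservation-1 against fresh edgeR called 0, where 0% of all genes were called, and the median was -0.01. There 0 had an unadjusted p under 0.05, against 4.72% of all genes, and DESeq2 called 0, against 0.245%.

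Most carriers and sensors of branched-chain amino acids had a negative log2 fold change in cryopreservation-2, and 1 passed the test. Of the 12 tested, 0 were called higher and 1 lower against fresh, where 3.18% and 2.2% of all genes were, 9 had a negative log2 fold change, and the median was -0.51 against -0.06 over all genes. The call was Slc3a2, the heavy chain that brings leucine carriers to the plasma membrane, at 527.9, 836.3 and 705.2 CPM in fresh, 663.8, 585.2 and 598.4 in cryopreservation-1 and 333.3, 422.3 and 423.1 in cryopreservation-2. All cryopreservation-2 libraries were below the other 6, with a log2 fold change of -0.81 against fresh (SE 0.205, edgeR adjusted p = 0.0484). That p sat at the threshold. The call was lost on leaving out any 1 of 8 libraries, all but fresh replicate 1, and under 7 of the other alternatives, with adjusted p from 0.0505 (RLE scaling) to 0.134 (both groups fitted alone). Slc7a5, the leucine carrier that pairs with Slc3a2, stood at 17.9 ± 5.93, 24.3 ± 4.58 and 7.42 ± 4.16 CPM (SD, n = 3) in fresh, cryopreservation-1 and cryopreservation-2, a log2 fold change of -1.27 against fresh (SE 0.434, edgeR adjusted p = 0.119). Against cryopreservation-1, edgeR called 0 of 12, where 2.75% of all genes were called. An unadjusted p under 0.05 was found for 3 of the 12, against 18.9% of all genes. DESeq2 called 3, all lower, where it called 5.2% of all genes lower.

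The other E2 cores did not show the Dbt pattern past the threshold, though no test compared them with it. Dlat stood at 45.2 ± 4.28 CPM in fresh and 51.8 ± 17.4 in cryopreservation-2 (SD, n = 3; log2 fold change 0.20, edgeR adjusted p = 0.735). Dlst, the core of the 2-oxoglutarate dehydrogenase complex, stood at 13.9 ± 2.13 and 19.7 ± 5.69 CPM (log2 fold change 0.51, edgeR adjusted p = 0.480). Both genes were picked from their list after its values were seen, as the counterparts of Dbt.

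Among the 13 genes tested of the pyruvate and 2-oxoglutarate complexes with their kinases and phosphatases, 1 was called higher and 1 lower in cryopreservation-2 against fresh, where 3.18% and 2.2% of all genes were, and the median log2 fold change was 0.07. DESeq2 called 3 of the 13, against 14.1% of all genes, and 5 had an unadjusted p under 0.05 in edgeR, against 21.8%. Pdhb, the E1 beta subunit of pyruvate dehydrogenase and so the counterpart of Bckdhb, stood at 21.4, 22.6 and 19.5 CPM in fresh, 28.7, 33.4 and 27.0 in cryopreservation-1 and 57.1, 53.3 and 47.6 in cryopreservation-2. It rose by 1.31 (SE 0.199, edgeR adjusted p = 0.00916), the direction opposite to the sign for Bckdhb. Pdk3, a kinase that inactivates pyruvate dehydrogenase, went from 76.7 ± 17.5 to 41.9 ± 4.93 CPM (SD, n = 3; log2 fold change -0.87, SE 0.217, edgeR adjusted p = 0.0458), and its call was lost on leaving out any 1 of the 9 libraries. Between cryopreservation-2 and cryopreservation-1 edgeR called 0 of 13, where 2.75% of all genes were called. In that comparison 4 had an unadjusted p under 0.05, against 18.9% of all genes, and DESeq2 called 3, against 10.8%. Between cryopreservation-1 and fresh edgeR called 0, where 0% of all genes were called. There 2 had an unadjusted p under 0.05, against 4.72% of all genes, and DESeq2 called 1, against 0.245%. Pdk2, another such kinase, had 55, 64 and 96 counts in the cryopreservation-1 libraries and 0 in every fresh and cryopreservation-2 library, and edgeR called it in none of the comparisons (adjusted p = 1 for cryopreservation-1 against fresh).

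The 8 genes that make lipoic acid or attach it to proteins such as Dbt gave 0 calls in each comparison. Over all genes edgeR called 5.38% in cryopreservation-2 against fresh, 2.75% against cryopreservation-1 and 0% in cryopreservation-1 against fresh. The median log2 fold change of the 8 in cryopreservation-2 against fresh was -0.30, against -0.06 over all genes. Mecr, of mitochondrial fatty acid synthesis, stood at 4.39 ± 0.419 CPM in fresh and 9.11 ± 3.16 in cryopreservation-2 (SD, n = 3; log2 fold change 1.05, SE 0.383, edgeR adjusted p = 0.139). Lipt1, the lipoyl transferase, stood at 61.8 ± 14.9 and 41.7 ± 5.53 CPM (log2 fold change -0.57, SE 0.259, edgeR adjusted p = 0.235). In this comparison 1 of the 8 had an unadjusted p under 0.05 in edgeR, against 21.8% of all genes, and DESeq2 called 0, against 14.1%. Against cryopreservation-1 2 had an unadjusted p under 0.05, against 18.9% of all genes, and DESeq2 called 1, against 10.8%. In cryopreservation-1 against fresh both counts were 0, against 4.72% and 0.245% of all genes.

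**Figure D3:**
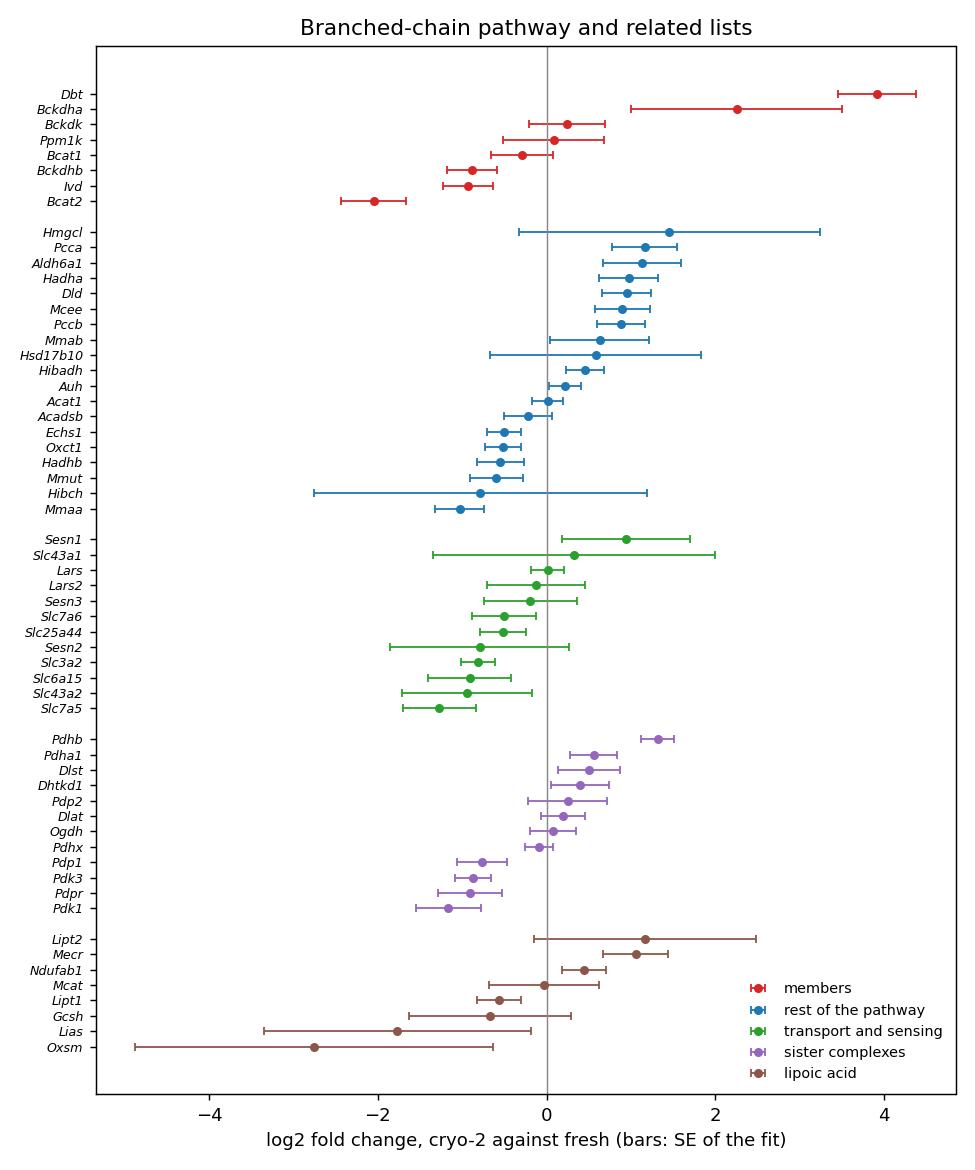
Log2 fold changes of cryopreservation-2 (cryo-2) over fresh for 8 members and the tested genes of the 4 lists, 1 point per gene with bars of 1 SE; Mccc1, Mccc2 and Pdk2 are left out because of their counts of 0. Dbt (3.92, not tested) and Bcat2 (-2.05) lie at the ends of the members, and in the transport and sensing list 9 of 12 points are below 0.

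No gene beside Dbt on chromosome 3 was called. The table held 6 genes within 50000 bases, and edgeR called 0 of 6 in each comparison, as did DESeq2. Over all genes edgeR called 5.38% in cryopreservation-2 against fresh, 2.75% against cryopreservation-1 and 0% in cryopreservation-1 against fresh. DESeq2 called 14.1%, 10.8% and 0.245% in the same order. Only 1, Rtca in cryopreservation-2 against fresh, had an unadjusted p under 0.05 in edgeR, against 21.8% of all genes. Rtca, whose end is 4862 bases from Dbt and which lies on the opposite strand, stood at 9.43 ± 0.961 CPM for fresh, 13.9 ± 2.43 for cryopreservation-1 and 16.3 ± 5.15 for cryopreservation-2 (SD, n = 3), a log2 fold change of 0.79 of cryopreservation-2 over fresh (edgeR adjusted p = 0.143). Gm4596, a processed pseudogene on the minus strand between exons 3 and 4 of Dbt, had 2.96, 4.85 and 3.06 CPM as group means, so its cryopreservation-2 level was near that of fresh (log2 fold change 0.04, edgeR adjusted p = 0.973). Of the other neighbours, Gm9761, Lrrc39, Trmt13 and Sass6 had log2 fold changes of -0.35, -0.34, 0.13 and 0.25 in the same comparison. Only 1.23% of the 50-base words of the Dbt transcript, 40 of 3252, occurred in transcripts of other genes.

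**Figure D4:**
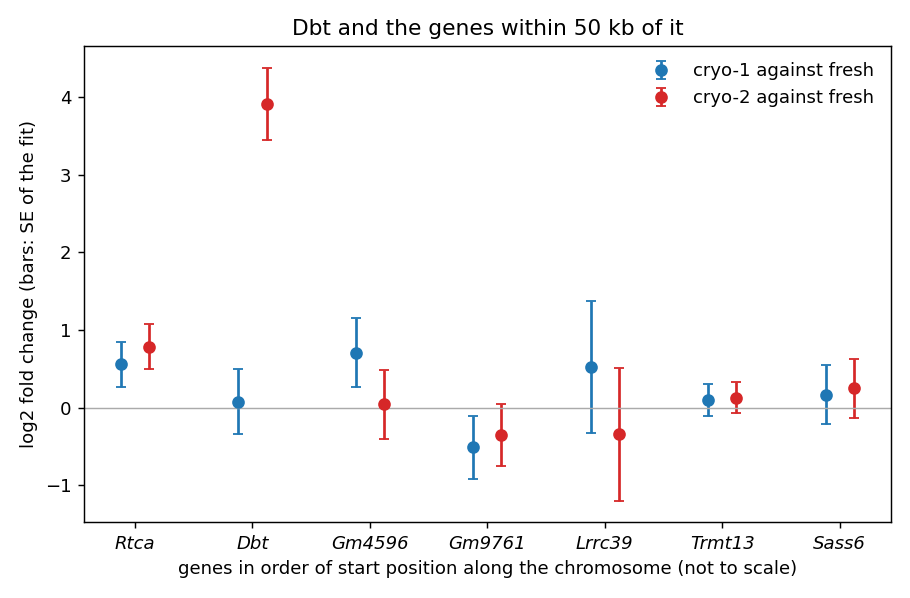
Log2 fold changes over fresh of Dbt and of the 6 genes of the table within 50000 bases of it, in order along the chromosome and not to scale, for cryopreservation-1 (blue) and cryopreservation-2 (red), with bars of 1 SE. In cryopreservation-2 the neighbours lie between -0.35 and 0.79 and Dbt at 3.92.

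The 5 genes whose levels were most like those of Dbt over the 9 libraries came from 5 different chromosomes. They were taken by the highest Pearson correlation of log2(CPM + 1) with Dbt among 8090 genes with a mean of at least 5 CPM, and as all libraries of a group enter together, the correlation mostly reflects the step to cryopreservation-2. They were Trim15 (r = 0.985), Gm16497 (0.981), Tex30 (0.981), Mrfap1 (0.981) and Cnih1 (0.979). Trim15, a TRIM family protein, had 1.998, 1.77 and 2.10 CPM in fresh, 2.80, 2.79 and 1.81 in cryopreservation-1 and 30.4, 15.9 and 24.3 in cryopreservation-2. Tex30 went from a mean of 34.8 CPM in fresh to 178 in cryopreservation-2, and Cnih1, an endoplasmic reticulum cargo receptor, from 17.9 to 31.7. In all 5 the highest library was cryopreservation-2 replicate 1, as it was for Dbt, which the way they were picked favours. No other branched-chain gene was among them. Of the other members only Bckdhb, Bckdk, Bcat1, Bcat2 and Ivd reached 5 CPM and were compared, with r from -0.875 (Bcat2) to -0.136 (Bckdk).

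**Figure D5:**
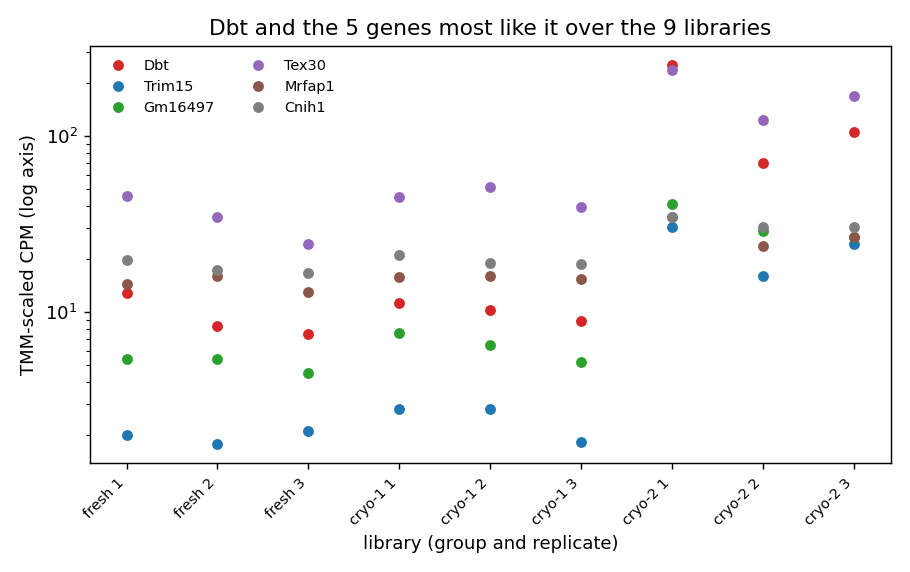
Level of Dbt and of the 5 genes most correlated with it in each of the 9 libraries, in CPM on a log scale, 1 point per library. In all 6 genes the cryopreservation-2 libraries (cryo-2) lie above the other 6, and replicate 1 is the highest of them, where the points of Mrfap1 and Cnih1 coincide.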

How the data were processed

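Poly(A) RNA-seq of 9 libraries of mouse oocytes was used, 3 per group, grouped by the treatment labels. Per the labels' protocols, RNA was extracted with Trizol, selected on oligo(dT) and made into dUTP strand-marked, PCR-amplified libraries without molecular identifiers. Per the submitters' processing notes, cutadapt 1.9, HISAT2 2.0.4, StringTie 1.3.4d and GRCm38 were used. How reads were counted, with which strand setting and annotation release, is not given in the sources used here, so antisense or overlapping genes cannot be told apart. The authors deposited raw counts and FPKM for 26358 genes. The deposited counts are whole reads per gene, and the deposited FPKM are normalised by the authors for length and depth.

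From the counts, genes were kept by filterByExpr (minimum count 10, minimum total 15; 17545 genes), scaled by TMM and tested with edgeR 4.0.16 (R 4.3.3) in 1 quasi-likelihood fit of all 9 libraries, with Benjamini-Hochberg adjustment per contrast. The common biological coefficient of variation was 0.662. The fit was tested on simulated data. Alternatives used DESeq2 1.42.0, limma 3.58.1 on FPKM, other scalings and filters, a length correction, 2 groups alone, a replicate block and each library left out. Libraries of 1 group differed by more than sampling noise (chi-square per degree of freedom 78.1 to 297.4). Deviations of same-numbered fresh and cryopreservation-1 libraries correlated (0.271, 0.364 and 0.439), and differently numbered ones of those groups reached at most 0.0771. Same-numbered pairs with cryopreservation-2 ran from -0.389 to 0.168. The differently numbered cryopreservation-1 replicate 3 and cryopreservation-2 replicate 1 reached 0.414. These values do not settle whether replicate numbers pair the libraries, and the main fit used no pairing.

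The members and gene lists were chosen with earlier results of these data known. All members are named, with list genes that passed the test or else the 1 or 2 smallest p in cryopreservation-2 against fresh, neighbours of Dbt within 50000 bases and the 5 genes most correlated with it. Sequences of transcripts came from GENCODE and those of promoters from RefSeq (GRCm38.p6).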

Additional observations from a re-analysis of the deposited data

How the results depend on the processing

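The difference of Dbt in cryopreservation-2 stayed positive under every alternative, with a log2 fold change of 3.26 to 4.24 over fresh and 3.21 to 4.18 over cryopreservation-1 when 1 library was left out. The other limits were low counts (Bckdha, Mccc1, Mccc2), 3 libraries per group and an unknown strand setting; causes of the changes below were not tested. In cryopreservation-1 against fresh, genes called went from 0 to 43 with DESeq2, 1 with both groups alone and 0 to 1 without a library, and DESeq2 called 1 gene of the sister complexes. In cryopreservation-2 against fresh, 944 genes called became 2471 (DESeq2), 1688 and 1597 (limma, pseudocounts 1 and 0.1), 429 (both groups alone), 500 (replicate block) and 231 to 786 without a library, 231 without fresh replicate 3. Against cryopreservation-1, 483 became 842 (minimum mean 5 CPM), 1892 (DESeq2), 1271, 1077 and 882 (limma with pseudocounts 1 and 0.1, and unfiltered), 230 (replicate block) and 15 to 480 without a library, 15 without cryopreservation-1 replicate 1 and 16 without its replicate 3. Of the members other than Dbt, calls against fresh were 3 (DESeq2), 0 (both groups alone) and 0 to 1 without a library, and against cryopreservation-1 3 (DESeq2), 0 (limma unfiltered) and 0 to 1.

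The same alternatives were added for the lists after seeing the data. Against fresh, the transport list went from 1 call to 0 under RLE or upper quartile scaling, no filter, unfiltered limma, both groups alone, the replicate block, length correction and, in a range of 0 to 1, without a library; DESeq2 called 2. The rest of the pathway went from 0 to 3 (minimum mean 5 CPM), 6 (DESeq2), 5 (limma, either pseudocount) and 1 (limma unfiltered), and lipoic acid genes from 0 to 1 (limma, pseudocount 1). The sister complexes went from 2 to 1 with no filter, unfiltered limma, both groups alone, the replicate block and every library left out, and to 3 with DESeq2. Against cryopreservation-1, where the lists had 0 calls, DESeq2 called 3 transport, 2 rest of pathway, 1 lipoic acid and 3 sister complex genes; minimum mean 5 CPM called 1 each of transport, rest of pathway and sister complexes. Limma called 1 transport, 1 rest of pathway and 2 sister complex genes with either pseudocount, 1 lipoic acid gene with a pseudocount of 1, and 2 sister complex genes unfiltered; RLE, both groups alone, length correction and, in a range of 0 to 1, a library left out called 1 sister complex gene.

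Signs that turned were of members with small or poorly measured differences. In cryopreservation-1 against fresh Ppm1k became -0.063 with the replicate block and Bckdhb -0.058 with length correction, and without a library the ranges were -0.068 to 0.35 (Dbt), -0.11 to 0.27 (Bckdhb), -0.18 to 0.35 (Bckdk), -0.24 to 0.48 (Ppm1k), -0.48 to 0.40 (Bcat2), -0.0035 to 0.19 (Ivd) and -8.10 to 0.74 (Mccc2). In cryopreservation-2 they were -0.074 to 0.63 (Bckdk) and -0.13 to 0.41 (Ppm1k) against fresh, and -0.17 to 0.52 (Bckdk), -0.39 to 0.33 (Ppm1k) and -0.57 to 1.83 (Mccc1) against cryopreservation-1, where Bckdk was -0.019 with the replicate block. The fitted values of Mccc1 and Mccc2 rest on libraries with 0 counts and are no measured fold. In the fit with the replicate block, Bcat2 against fresh was -1.91 (edgeR adjusted p = 0.031). Blocking by replicate number changed no call between cryopreservation-1 and fresh.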
